A study of Mus musculus and Homo sapiens with 10 samples.

Results

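The genes described here encode the myosin heavy chains of striated muscle and the giant sarcomere proteins titin and nebulin. They were chosen as a list of 10 named mouse genes, and all 10 were found among 21523 protein-coding genes annotated on chromosomes 1 to 19 and X: Myh3, Myh2, Myh1, Myh4, Myh8, Myh13, Myh6, Myh7, Ttn and Neb. They occupy 4 loci. The skeletal genes Myh3 to Myh13 stand in a row on chromosome 11, the cardiac genes Myh6 and Myh7 lie side by side on chromosome 14, and Ttn and Neb lie apart on chromosome 2. What was measured for each gene is the share of its body, from the first to the last annotated base, inside lamina-associated domains (LADs), the stretches of chromatin that touch the nuclear lamina.

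The study compared DamID read on Nanopore instruments with the established version read on Illumina instruments. DamID fuses the bacterial adenine methyltransferase Dam to a chromatin protein, here the lamina protein LaminB1, and finds the GATC sites that the fusion marks. The cells were N2A, a mouse neuroblastoma line, with expression of the Dam proteins induced by 2 µg/mL doxycycline. LaminB1-Dam had 1 Nanopore sample and 2 Illumina samples, besides 1 Nanopore sample labelled 10% LaminB1-Dam, 1 Dam-only sample by each method and 1 wild-type sample. The 3 HEK293T samples, from a human kidney-derived line, served for CTCF and were not used here. The values used were the authors' 2 lists of consensus LADs, 1210 intervals by Nanopore and 1190 by Illumina. They give positions only, so depth is unknown, no spread between replicates exists for any value, and no difference between lists or genes could be tested. The lists hold no RNA measurement, so expression of these genes in N2A cells was not analysed here.

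Myosin heavy chains are the motor proteins of the thick filament. Skeletal muscle uses a different heavy chain gene at each stage and in each fibre type, and the heart uses the alpha and beta chains. Titin spans the sarcomere from Z disc to M band as a molecular spring, and nebulin runs along the thin filament of skeletal muscle. Chromatin at the lamina is in general poor in genes and low in transcription, and tissue-specific genes are often found there in cells that do not use them.

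The promoters of the skeletal cluster are shown first, because a LAD border split the cluster and its promoters were not all alike. That of Myh13, which lay inside LADs of both lists, is not printed and held none of the runs described below. Each line gives the 250 bases before the annotated start site, plus strand of mm10 chromosome 11, from RefSeq's table for GRCm38.p6, to which mm10 corresponds. Capitals mark only the longest run identical in Myh2, Myh1, Myh4 and Myh8 and the longest identical in Myh1, Myh4 and Myh8. Some pairs of these genes share longer runs, up to 22 bases, that are partly in lower case. Myh3 (chr11:67078050-67078299) lay outside LADs, and Myh2 (chr11:67170777-67171026), Myh1 (chr11:67199852-67200101), Myh4 (chr11:67237562-67237811) and Myh8 (chr11:67276874-67277123) lay inside LADs of both lists.
Myh3: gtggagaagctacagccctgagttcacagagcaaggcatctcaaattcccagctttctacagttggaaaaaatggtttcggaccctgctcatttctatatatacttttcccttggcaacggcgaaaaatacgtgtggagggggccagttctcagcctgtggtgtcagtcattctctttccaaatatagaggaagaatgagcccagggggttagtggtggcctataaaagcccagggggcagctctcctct
Myh2: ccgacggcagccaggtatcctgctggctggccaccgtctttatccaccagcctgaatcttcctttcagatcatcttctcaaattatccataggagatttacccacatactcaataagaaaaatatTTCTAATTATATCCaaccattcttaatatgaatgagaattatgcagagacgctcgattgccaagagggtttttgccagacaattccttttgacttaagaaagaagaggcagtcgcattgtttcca
Myh1: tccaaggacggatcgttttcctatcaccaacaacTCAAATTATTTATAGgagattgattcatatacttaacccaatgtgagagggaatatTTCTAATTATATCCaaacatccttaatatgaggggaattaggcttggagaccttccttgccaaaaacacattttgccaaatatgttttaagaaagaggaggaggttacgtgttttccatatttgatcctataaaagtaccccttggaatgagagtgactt
Myh4: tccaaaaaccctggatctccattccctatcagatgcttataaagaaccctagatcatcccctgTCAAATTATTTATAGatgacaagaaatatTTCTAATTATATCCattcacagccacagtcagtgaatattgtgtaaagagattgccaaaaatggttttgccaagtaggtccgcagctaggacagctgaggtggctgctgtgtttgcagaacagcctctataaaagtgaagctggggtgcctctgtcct
Myh8: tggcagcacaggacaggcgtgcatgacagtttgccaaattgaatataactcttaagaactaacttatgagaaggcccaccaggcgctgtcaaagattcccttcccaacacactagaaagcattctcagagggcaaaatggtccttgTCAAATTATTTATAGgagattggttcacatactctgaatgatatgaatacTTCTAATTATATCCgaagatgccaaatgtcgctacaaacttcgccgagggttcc

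The run TTCTAATTATATCC, 14 bases long, was present in the windows of Myh2, Myh1, Myh4 and Myh8. Searched on both strands, it occurred in 4 of 17274 protein-coding promoters, or 0.0232%, and these were the same 4 genes. It began 125 bases before the start of Myh2, 160 before that of Myh1, 158 before that of Myh4 and 54 before that of Myh8. A further run of 15 bases, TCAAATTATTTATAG, occurred in Myh1, Myh4 and Myh8 and in no other of the 17274 promoters, a share of 0.0174%. Among 36 pairs of the 9 member promoters in RefSeq's table, the 6 pairs formed by Myh2, Myh1, Myh4 and Myh8 had a longest common run of 14 to 22 bases, and the other 30 pairs had 6 to 11. Myh13, the fifth gene of the cluster inside LADs, held neither run. These runs were found by looking at the promoters and are a description of the letters only. No promoter of Neb was matched.

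Some short motifs were counted in the same windows on both strands. TATAAA stood 29 bases before the start of Myh3, 32 before that of Myh1 and 31 before that of Myh4. In Myh8 its only match was on the other strand, inside the run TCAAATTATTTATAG. In all, 12.5% of protein-coding promoters held TATAAA. The E-box letters CANNTG, read by the myogenic factors of the MyoD family among others, occurred in Myh3 (1), Myh4 (2), Myh8 (1), Myh13 (2), Myh6 (1) and Ttn (1), in both annotated start windows of Myh7 (1 and 2) and not in Myh2 or Myh1, against 62.7% of all promoters. The MEF2 site was searched in a strict form only. That form was found in the Ttn window only among the 9 genes (0.498% of all promoters), and a CArG box in the Myh4 window only (1.41%). Looser forms of the MEF2 site were not searched, so the other windows cannot be said to lack one, and the background share holds for the strict form alone. GATC, the site that Dam marks, was present in the windows of Myh2 (1), Myh1 (2), Myh4 (2), Myh13 (1), Myh6 (1) and Ttn (1) and in none of Myh3, Myh8 and Myh7, against 40.5% of all promoters.

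The first comparison set the skeletal cluster against the cardiac pair. Of the 6 skeletal genes, 5 lay wholly inside LADs of both lists: Myh2, Myh1 and Myh4, which encode the fast IIa, IIx and IIb chains of adult muscle, Myh8, the perinatal chain, and Myh13, the chain of extraocular and laryngeal muscle. Myh3, the embryonic chain, lay wholly outside in both lists. Both cardiac genes, Myh6 (alpha chain) and Myh7 (beta chain, also the chain of slow skeletal fibres), were at 0% with either method.

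**Figure D1:**
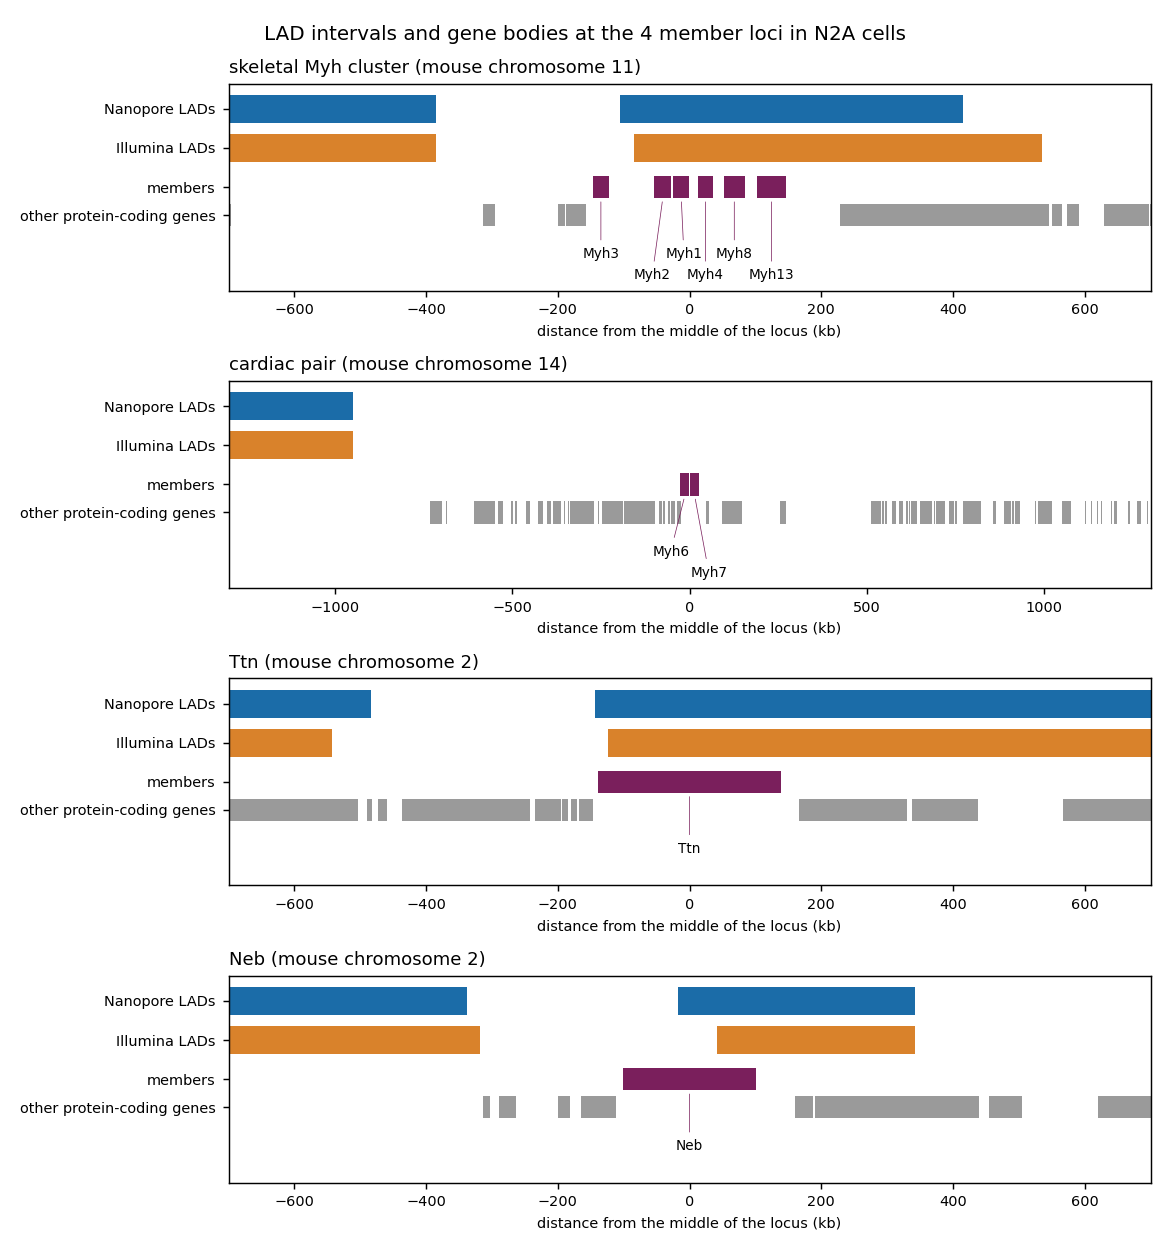
LAD intervals of both lists (blue, Nanopore; orange, Illumina), member genes (purple) and other protein-coding genes (grey) at the 4 loci, against the distance in kb from the middle of each locus; the cardiac panel has a wider scale. The LAD at the skeletal cluster begins between Myh3 and Myh2 in both lists, no LAD comes near the cardiac pair, the 3′ end of Ttn (on the left) lies close to a LAD border, and Neb lies across a border that is placed differently by the 2 methods.

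Across all protein-coding genes, 28.9% had at least 50% of the body inside Nanopore LADs and 25.4% inside Illumina LADs. By the same rule 7 of 10 members were inside by Nanopore and 6 by Illumina, the difference being Neb. For 6 members, Myh2, Myh1, Myh4, Myh8, Myh13 and Ttn, both lists passed this rule, against 24.7% of all genes, and 5 of the 10 were wholly inside both lists, against 22.8%. The 5 skeletal genes inside share a single LAD, so they are 1 observation of chromatin state and not 5. The median share over members was 100% by Nanopore and 97.1% by Illumina, and the median over all protein-coding genes was 0% in both lists.

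**Figure D2:**
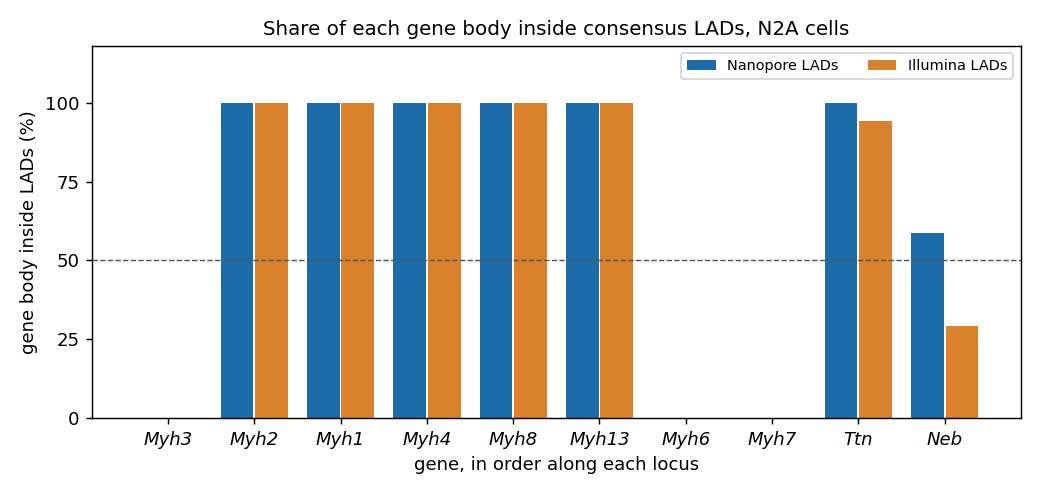
Share of each gene body inside consensus LADs, in percent, by Nanopore (blue) and Illumina (orange); the dashed line marks 50%. Myh2, Myh1, Myh4, Myh8 and Myh13 are at 100% in both lists, Myh3, Myh6 and Myh7 at 0%, Ttn at 100% and 94.2%, and Neb at 58.8% and 29.1%.

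Myh3 (chr11:67078273-67102291, 24.0 kb) comes first on the chromosome. It had 0% of its body in LADs of either list. Its last base lay 17.7 kb before the Nanopore LAD and 37.7 kb before the Illumina LAD. LAD borders in these lists fall on a grid of 20 kb, so the Nanopore border is less than 1 grid step from the end of Myh3.

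The space between Myh3 and Myh2 is 68.7 kb, the widest in the cluster, and both lists place the LAD border there. The other spaces between neighbours were 2.6 kb from Myh2 to Myh1, 13.2 kb to Myh4, 16.7 kb to Myh8 and 18.5 kb to Myh13. The Nanopore LAD ran from chr11:67120001-67640000 (520 kb) and the Illumina LAD from chr11:67140001-67760000 (620 kb). The near borders thus differed by 20 kb, a single grid step, and the far borders by 120 kb. Both widths were below the median of their list, 690 kb by Nanopore and 660 kb by Illumina.

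Myh2 (chr11:67171027-67197517, 26.5 kb) was the first gene inside, and its start site lay 51.0 kb from the nearest border by Nanopore and 31.0 kb by Illumina. For Myh1 (chr11:67200102-67224577, 24.5 kb) the start site was 80.1 kb and 60.1 kb inside. For Myh4 (chr11:67237812-67260447, 22.6 kb) the distances were 117.8 kb and 97.8 kb. The start of Myh8 (chr11:67277124-67308634, 31.5 kb) was 157.1 kb and 137.1 kb inside, and that of Myh13 (chr11:67327103-67371587, 44.5 kb) 207.1 kb and 187.1 kb. The distance grows along the row because the nearest border is the shared one before Myh2 for all 5 genes, and every Illumina distance is 1 grid step shorter. All are larger than the 20 kb step between the lists at this border.

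**Figure D3:**
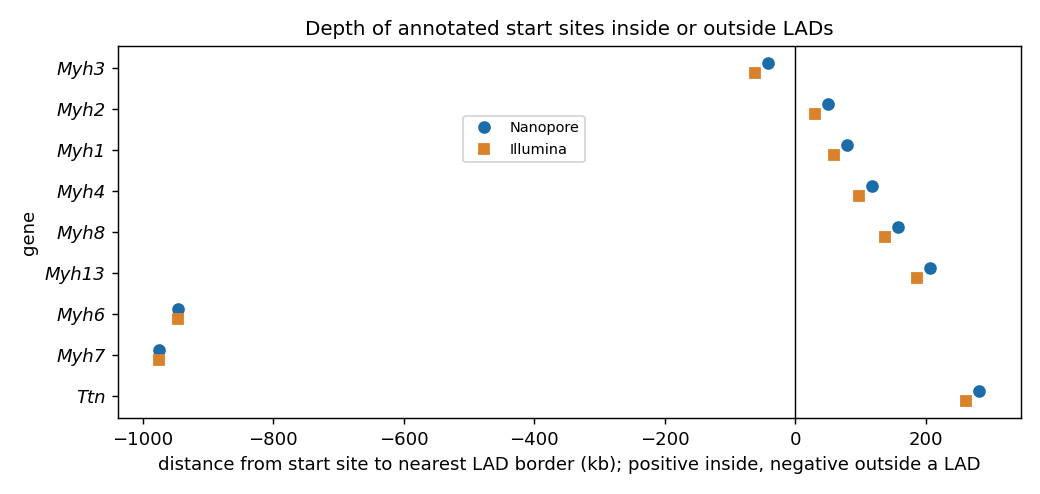
Distance in kb from the annotated start site to the nearest LAD border, positive inside and negative outside a LAD, by Nanopore (blue circles) and Illumina (orange squares); Neb has no start in the table used. The skeletal starts run from -41.7 kb for Myh3 to 207.1 kb for Myh13 by Nanopore, and the cardiac starts lie at -946.6 kb and -974.6 kb in both lists.

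The LAD of the cluster also held other genes, and their number was not compared with that in LADs across the lists. By midpoint, the Nanopore LAD contained 6 protein-coding genes, the 5 myosin genes and Gas7, and the Illumina LAD contained 8, with Glp2r and Rcvrn added by its longer far end. Gas7 (chr11:67453257-67688992), a growth arrest-specific gene, had 79.2% of its body in Nanopore LADs and 100% in Illumina LADs. On the other side Sco1 (chr11:67052600-67067444), a gene for assembly of cytochrome c oxidase, was at 0% in both lists, as was Myh3 next to it. Myh3 and its neighbours lay in a gap between LADs of 280 kb by Nanopore and 300 kb by Illumina, which held 5 protein-coding genes in each list. Past the far end, the next LAD was 3420 kb away by Nanopore and 3320 kb by Illumina.

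Non-coding genes of the cluster were placed against the same border. Myhas, a long non-coding RNA gene between Myh1 and Myh4 (chr11:67224196-67237281), was wholly inside LADs of both lists. Gm31285 (chr11:67134937-67143944), in the space between Myh3 and Myh2, was at 100% by Nanopore and 43.8% by Illumina. 2310065F04Rik (chr11:67112461-67120080), also in that space, was at 1.05% by Nanopore and 0% by Illumina. Mir6923, within the body of Myh3, was at 0% in both. These shares follow from the position of each gene along the same LAD, so they are not an observation separate from the myosin genes. The exact place of the border differs by 1 grid step between the methods.

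Myh6 (chr14:54941921-54968017, 26.1 kb) and Myh7 (chr14:54970684-54994626, 23.9 kb) are separated by 2.7 kb. Neither gene had a base in a LAD. The nearest LAD base lay 921.9 kb from Myh6 and 950.7 kb from Myh7, the same in both lists, since both end that LAD at 54020000. The gap between LADs around the pair was 3140 kb wide by Nanopore and 3120 kb by Illumina, wider than 93.8% and 92.1% of gaps in the respective lists. It held 100 protein-coding genes. Within 500 kb of the pair there were 32 other protein-coding genes, and none of them had 50% or more of its body in a LAD of either list. Chromosome 14 as a whole had 59.0% of its length in Nanopore LADs and 53.4% in Illumina LADs. Over all protein-coding genes, 68.8% were wholly outside both lists, so the position of the pair, like that of Myh3, is that of most genes.

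Each cardiac gene hosts a microRNA, which is outside LADs because its host is. Capitals mark the seed, bases 2 to 8 of the mature RNA, in RefSeq's sequences.
mmu-miR-208a-3p: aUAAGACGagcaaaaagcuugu
mmu-miR-208b-3p: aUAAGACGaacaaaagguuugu
mmu-miR-499-5p: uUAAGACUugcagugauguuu

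Mir208a lies in Myh6 (mature 3p arm at chr14:54949072-54949093, minus strand) and Mir208b in Myh7 (chr14:54975710-54975731, minus strand). The 3p arms share the seed UAAGACG, which no other of 1738 mature mouse miRNAs in the table has, and are identical at 19 of 22 bases. They differ by G10A, A16G and C18U, counted from the 5′ end with the miR-208a-3p base first. Mir499, hosted by the related gene Myh7b on chromosome 2 (mature 5p arm at chr2:155622893-155622913), has the seed UAAGACU. All 3 microRNA genes were at 0% in LADs of both lists, which follows from their hosts being at 0%. Mhrt, the antisense long non-coding RNA gene at the cardiac pair (chr14:54968787-54974349), was at 0% too.

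Ttn (chr2:76703980-76982557, 278.6 kb), the titin gene, lay inside LADs from end to end or nearly so. All of its body was in the Nanopore list and 94.2% in the Illumina list, which left 16.0 kb outside. Ttn is on the minus strand, so its start site is at the high end of this range, 282.5 kb inside by Nanopore and 262.5 kb by Illumina, and the 16.0 kb outside are at its 3′ end. There the Nanopore LAD begins at chr2:76700001, 4.0 kb past the end of the gene, and the Illumina LAD at chr2:76720001. Both LADs end at 78860000 and are 2160 kb and 2140 kb wide, wider than 83.5% and 85.0% of their lists. The gene thus fills the edge of a wide LAD, in contrast to the skeletal cluster, whose LAD is narrower than the median.

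Neighbours of Ttn were divided at its 3′ end. Plekha3 (chr2:76675305-76697335), 6.6 kb beyond that end, was at 0% in both lists. Ccdc141 (chr2:77009902-77173769), 27.3 kb beyond the start of Ttn, was at 100% in both. The LAD of Ttn held 6 protein-coding genes by midpoint in each list, Ttn with Ccdc141, Sestd1, Zfp385b, Cwc22 and Gm14461. Zfp385b encodes a zinc finger protein.

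Neb (chr2:52136640-52338798, 202.2 kb), the nebulin gene, was the member on which the lists differed most. By Nanopore 118.8 kb of its body (58.8%) lay in a LAD, and by Illumina 58.8 kb (29.1%). The part inside was the end with the higher coordinates in both lists. The Nanopore LAD ran from chr2:52220001-52580000 (360 kb) and the Illumina LAD from chr2:52280001-52580000 (300 kb). The far borders were identical and the border inside Neb differed by 60 kb, or 3 grid steps. A rule of 50% of the body thus puts Neb inside by Nanopore and outside by Illumina, while a LAD border crosses it in both lists.

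Rif1 (chr2:52072815-52126769), a gene of replication timing and DNA repair, lies 9.9 kb below Neb and was at 0% in both lists. Arl5a (chr2:52397949-52424874), 59.2 kb above Neb, was at 100% in both, as was the non-coding gene 4930573O16Rik (chr2:52291002-52315240) within the body of Neb. Genes across a border are uncommon: 3.63% of all protein-coding genes crossed a Nanopore border and 3.15% an Illumina border. Of 990 genes of 200 kb or more, the length class of Ttn and Neb, 24.5% and 21.7% did, and 55.6% and 48.9% had at least 50% of the body in LADs. Ttn and Neb are therefore to be read against that class, and the heavy chain genes against genes under 50 kb, of which 28.0% and 24.8% passed the 50% rule.

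Start sites gave the same split as gene bodies, which is not a separate result. Every gene with a start except Ttn lay wholly inside or wholly outside LADs in both lists, which sets the state of its start. Only the start of Ttn in the Illumina list, where 94.2% of the body was inside, could have differed. The skeletal starts inside also share a single LAD. Of the 9 members with an annotated start, 6 had it inside LADs of both lists, Myh2, Myh1, Myh4, Myh8, Myh13 and Ttn, and Myh3, Myh6 and Myh7 had it outside. Among 17274 protein-coding genes with a start in the table, 28.7% had it inside by Nanopore and 25.4% by Illumina.

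The LAD share of each locus as a whole put the 4 in order. The span from the first base of Myh3 to the last of Myh13 (293.3 kb) was 85.8% covered by Nanopore LADs and 79.0% by Illumina LADs, between Ttn at 100% and 94.2% and Neb at 58.8% and 29.1%, and the cardiac pair (52.7 kb) was at 0%. The order was the same in both lists. With 500 kb added on either side, the skeletal locus was at 60.4% and 68.2%, Ttn at 73.4% and 67.2%, Neb at 51.9% and 48.5%, and the cardiac pair still at 0%. With these flanks the order of Ttn and the skeletal locus turned between the lists. The steps between loci have no error that could be set against them.

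Genes with the same pair of shares were many for most members. Of 9936 other protein-coding genes of 20 kb or more, 1759 were at 100% in both lists, as were Myh2, Myh1, Myh4, Myh8 and Myh13, and 6980 were at 0% in both, as were Myh3, Myh6 and Myh7. Nearest to Ttn, by the Euclidean distance over the 2 shares, were Pls1 (100% and 94.3%) and Tgfbr3 (100% and 94.7%). Nearest to Neb were Hdac9 (58.6% and 27.3%) and Myo1d (60.4% and 26.9%). The likeness rests on 2 values per gene.

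Other myosin heavy chain genes were counted by the same rule. Of 6, only Myh15 on chromosome 16 (chr16:49057400-49199563), passed the 50% rule, at 100% in both lists. Myh7b of striated muscle, Myh11 of smooth muscle and the non-muscle genes Myh9, Myh10 and Myh14 were at 0% in both, as were 68.8% of all protein-coding genes.

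**Figure D4:**
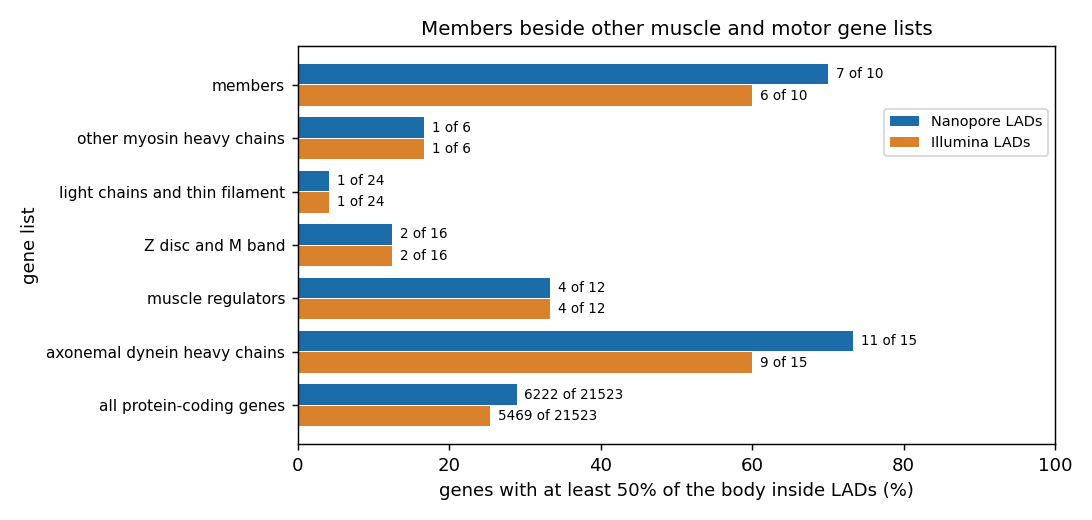
Percentage of genes with at least 50% of the body inside LADs of each list, for the members, 5 further gene lists and all protein-coding genes, with counts beside the bars. The members (7 and 6 of 10) stand at 70% and 60%, the light chain and thin filament list at 1 of 24 in both lists, and all protein-coding genes at 28.9% and 25.4%.

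Partners of the members in the sarcomere are read against the 68.8% of all protein-coding genes that lay wholly outside both lists. Of 24 genes for myosin light chains and the thin filament, 22 were at 0% in both lists. Actc1, the cardiac actin gene (chr2:114047282-114052875), was at 100% in both. Nebl, a relative of Neb, had 9.52% of its 392.3 kb inside by Nanopore and 14.6% by Illumina. Of 16 genes for the Z disc and M band, 14 were at 0%, while Myot (myotilin) was at 100% and Mybpc1, the slow myosin-binding protein C gene, at 98.0% in both lists. All 3 genes above the 50% rule in these lists, Actc1, Myot and Mybpc1, were above it with both methods.

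Among 12 muscle regulators, 4 passed the 50% rule with both methods and the other 8, Myod1 and Myog among them, were at 0%. The 4 were the neighbours Myf5 and Myf6 on chromosome 10 and Mef2c, each at 100% in both lists, and Pax3 at 82.1% by Nanopore and 100% by Illumina. These counts, 33.3% of the list, are near the shares over all protein-coding genes, 28.9% and 25.4%. The median share was 0% in all of these lists, as over all genes.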

How the data were processed

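LAD positions by Nanopore-DamID and Illumina-DamID in N2A cells were taken from 2 interval lists that the authors deposited, with no score per interval. Per the submitters' processing notes, minimap2, SAMtools, deepTools and bedtools were used, with the builds mm10 and hg38 named. The LAD caller, its settings and the input samples were not given in the sources used here, so what the word consensus covers is unknown. All borders on chromosomes 1 to 19 and X lay on a 20 kb grid, which limits every position to that step. Replicate samples could not be compared, as the lists hold no values per sample, and no tests were run.

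Gene bodies came from RefSeq's GRCm38.p6 table, without 340 genes listed below 3 Mb, and start sites from its promoter table, which held 9 of 10 members. The share of a gene is its bases inside LADs over its length, and genes at 50% or more are called inside. The overlap code was tested on simulated data. The members and gene lists were chosen with earlier results of these data known. Named genes are the members, the nearest protein-coding genes of each locus, the genes of the 5 lists and the 2 genes nearest in shares; Glp2r, Rcvrn, Sestd1, Zfp385b, Cwc22, Gm14461, the non-coding genes, the microRNAs and the promoter runs were chosen after their values were seen. Alternatives changed the gene placement, the LAD widths and the threshold. Tools were pandas 2.3.3, numpy 2.4.6, scipy 1.17.1 and matplotlib 3.10.9 in Python 3.11.15.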

Additional observations from a re-analysis of the deposited data

How the results depend on the processing

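With the threshold at 50% of the body, Myh2, Myh1, Myh4, Myh8, Myh13 and Ttn were inside and Myh6 and Myh7 at 0% in both lists under each alternative run. Neb was the member that crossed the 50% rule. Its Nanopore share fell from 58.8% to 48.9%, below the 50% rule, with LADs trimmed by 20 kb at each border, and became 100% by its midpoint, while its Illumina share was 0% by midpoint and 19.2% after trimming. Myh3 gained 3.58% by Nanopore when its body was widened by 20 kb on each side. The count of members inside was 7 by Nanopore and 6 by Illumina; it ranged from 6 to 7 and from 5 to 7 over all alternatives, counting any overlap and whole bodies. Start sites cover 9 members. The share of the skeletal span ranged between 79.0% and 85.8% with Nanopore LADs and between 72.1% and 79.0% with Illumina LADs. Of the single-gene values under alternatives, 114 stayed within a 95% Wilson interval over the 20 kb bins of the gene and 4, all of Neb and Ttn by a single point of the gene, did not; the bins are not independent and, where a gene has few of them, the interval is wide. Many of these values could not have moved, so the count of 114 does not measure stability. LADs at the loci are 300 kb or wider, and the gaps beside them 120 kb or wider. Leaving out LADs under 100 kb or merging gaps of 40 kb or less therefore changed nothing there. Myh2, Myh1, Myh4, Myh8, Myh13, Myh6 and Myh7 lie 31.0 kb or more from every border, beyond the reach of a 20 kb change. No paired analysis was possible because the lists hold no values per sample.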

Other observations

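Axonemal dynein heavy chains are the motors of cilia and another family of long genes. With the 50% rule, 11 of 15 were inside LADs by Nanopore and 9 of 15 by Illumina. The shares were 28.9% and 25.4% over all protein-coding genes, and 55.6% and 48.9% over those of 200 kb or more. The median length of the 15 genes was 238.3 kb, between those of Neb and Ttn, but not all reach 200 kb. Dnah1, Dnah2, Dnah3, Dnah10 and Dnah17 are 65.5 to 174 kb long. Of these, Dnah3 passed the rule in both lists and the rest were at 0% in both. The list and the 200 kb class are thus unlike in length. Dnah7a, Dnah7b, Dnah7c and Dnah11 were at 100% in both lists. Dnah12 and Dnah14 were at 59.7% and 50.3% by Nanopore and 0% by Illumina, a larger gap between the methods than at Neb, where both lists had a part of the gene. Dnah9 (chr11:65831324-66168581), on the same chromosome as the skeletal cluster, was at 85.6% in both lists. These genes were set beside the members as another motor family, and the difference between families was not tested.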
